A study of Mus musculus with 8 samples.

Results

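The genes described here are 35 genes of the endoplasmic reticulum (ER) chaperone system and the unfolded protein response, taken by name from the 27594 genes of the count table of a mouse regulatory T (Treg) cell RNA sequencing study. All 35 were found once in the table, and all 35 passed the filter on low counts that left 14540 genes for testing. The study asked what the transcription factor Foxp1 does in resting and activated Treg cells, named rTreg and aTreg. C57BL/6 mice aged 6 to 8 weeks gave spleen and peripheral lymph node cells, which were sorted as CD4+ YFP+ cells by surface markers that include CD44, low on rTreg and high on aTreg cells. WT mice carried the Foxp3-YFP-Cre allele alone, and Foxp1-deficient (Foxp1 cKO) mice carried it with Foxp1 fl/fl. Both genotypes therefore expressed YFP and Cre from the Foxp3 locus, so that the deletion was limited to cells that had expressed Foxp3, and the mutant cells came from mice in which Treg cells throughout the body were targeted. There were 2 libraries, replicates 1 and 2, in each of the 4 groups, and the labels do not say how many mice went into each. With replicate number as a block in the model, p-values measure the spread between libraries left after the shared replicate difference is removed. That spread cannot be equated with the spread between mice.

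The ER folds proteins that are destined for secretion or for the cell membrane. Chaperones of the lumen hold unfolded chains, protein disulfide isomerases form their disulfide bonds, and chains that fail to fold are sent back to the cytosol for degradation. When unfolded chains accumulate, the sensors encoded by Ern1 (IRE1α), Eif2ak3 (PERK) and Atf6 signal to the nucleus through spliced Xbp1, through Atf4 and through the cleaved ATF6 protein, and genes for chaperones and degradation factors are induced. Activated lymphocytes are known to expand their ER. These signals act by splicing, phosphorylation and cleavage, so a read count per gene measures the amount of each transcript and not the activity of its branch.

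The promoters of several members hold the ER stress response element (ERSE), the sequence through which ATF6 and XBP1 are known to act with the factor NF-Y. RefSeq promoter windows of GRCm38.p6, from 250 bases before to 50 bases after the start of transcription, were at hand for 30 of the 35 members. The promoters of Hyou1, Manf, Atf6, Sec61a1 and Ssr2 were not analysed here. The letters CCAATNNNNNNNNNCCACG were searched on both strands and were found in the windows of 8 of the 30 members (26.7%) and in 0.119% of all 32851 windows. The sites are shown as a description of sequence, each read in the direction of the element with 5 flanking bases on either side and the element in capitals:
Hspa5, chr2:34772020-34772048, plus strand: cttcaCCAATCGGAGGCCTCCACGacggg
Hsp90b1, chr10:86705633-86705661, minus strand: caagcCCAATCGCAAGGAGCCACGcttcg
Hsp90b1, chr10:86705528-86705556, plus strand: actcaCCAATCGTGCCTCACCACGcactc
Calr, chr8:84847070-84847098, plus strand: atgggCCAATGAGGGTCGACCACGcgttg
Canx, chr11:50325795-50325823, minus strand: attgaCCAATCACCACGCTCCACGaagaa
Pdia6, chr12:17266486-17266514, plus strand: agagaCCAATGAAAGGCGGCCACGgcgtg
Dnajc3, chr14:118937822-118937850, plus strand: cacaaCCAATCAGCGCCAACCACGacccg
Creld2, chr15:88819515-88819543, minus strand: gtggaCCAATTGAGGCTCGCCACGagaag
Syvn1, chr19:6046527-6046555, plus strand: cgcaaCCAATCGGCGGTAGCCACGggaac
The end of these sites farthest from the start lay between 44 bases (Syvn1) and 212 bases (the first Hsp90b1 site) before it. Hsp90b1 held a pair of sites in opposite directions. The related ERSE-II, ATTGGNCCACG on either strand, was found in 2 of the 30 member windows and in 0.0365% of all windows, without overlap with an ERSE in the members:
Dnajb11, chr16:22857847-22857867, plus strand: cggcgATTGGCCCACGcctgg
Herpud1, chr8:94386372-94386392, plus strand: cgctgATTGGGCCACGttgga
The Herpud1 site lay 52 bases before the start and the Dnajb11 site began at base 8 of the transcript. The 8-base core of the unfolded protein response element, TGACGTGG, was in 0 of the 30 windows against 0.676% of all windows, and the C/EBP-ATF element TGATGNAAT was in 0 of the 30 against 0.965%. A match is a run of letters in a window of 300 bases and was not tested for binding.

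Between 6373170 and 15268623 counts fell on genes in each library, and the lowest count of any member in any library was 16. Levels are given as CPM (counts scaled to library size) after TMM normalization, replicate 1 before replicate 2. Foxp1 itself stood at 353 and 384 CPM in WT rTreg, 342 and 338 in Foxp1-deficient rTreg, 234 and 230.3 in WT aTreg and 126 and 102 in Foxp1-deficient aTreg cells. Between genotypes it passed the test in aTreg cells (log2 change -1.03 ± 0.10, SE, edgeR adjusted p = 0.00194) and not in rTreg cells (-0.12 ± 0.09, edgeR adjusted p = 0.460), so the whole-gene count does not check the labels of the rTreg libraries. Both sets of sorted cells held the Treg markers Foxp3 (429 to 646 CPM) and Il2ra, and Cd44 differed between rTreg and aTreg as in the sort. Replicate 1 libraries held 0 to 0.276 CPM of Xist, which is transcribed in female cells, and replicate 2 libraries 1142 to 1399 CPM. The 12 genes of a list of handling-stress genes such as Fos, Jun, Junb and Dusp1 summed to 3669 to 6437 CPM in replicate 1 and 1975 to 3150 CPM in replicate 2. Replicate number entered the model as a block. The Foxp1-deficient replicate 1 libraries stood apart in the cytosolic chaperone gene Hsp90aa1, at 22.2 CPM in rTreg and 27.0 CPM in aTreg cells against 284 to 343 CPM in the other 6 libraries, and the counts of called members are given with and without them.

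Together the 35 members took 0.437% to 0.553% of the counts of a library. Their summed level was 4723 and 4490 CPM in WT rTreg, 5080 and 4988 CPM in Foxp1-deficient rTreg, 5235 and 4821 CPM in WT aTreg and 5375 and 5267 CPM in Foxp1-deficient aTreg cells. The sums of the Foxp1-deficient rTreg libraries both lay above those of the WT rTreg libraries, and the same held in aTreg cells. Per length, in FPKM, the highest mean levels in WT rTreg cells were those of Ppp1r15a (132 ± 64.6, SD, n = 2), Calr (122 ± 5.39), Hspa5 (109 ± 17.3), Atf4 (104 ± 7.30) and Pdia3 (98.9 ± 6.18), which lay within each other's spread or next to it. The 3 lowest were Trib3 (3.05 ± 0.173 FPKM), Ern1 (2.57 ± 0.493) and Atf6 (1.87 ± 0.00991). In WT aTreg cells Calr (155 ± 19.0 FPKM) and Hspa5 (155 ± 20.5) stood highest and did not differ beyond their spread.

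**Figure D1:**
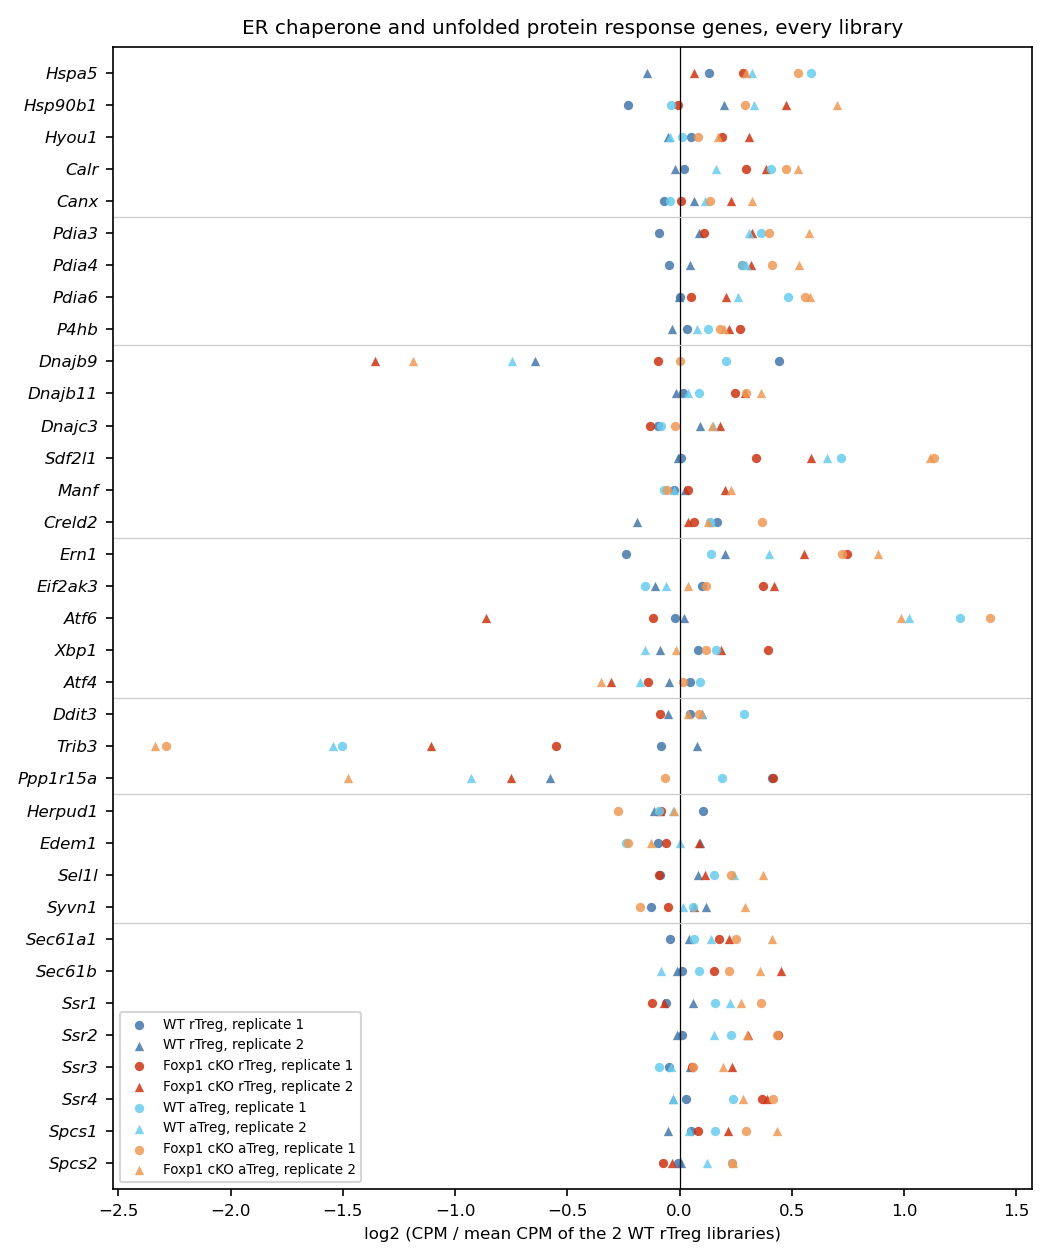
Level of each of the 35 members in each of the 8 libraries, as log2 of its CPM over the mean CPM of the WT rTreg libraries, with genes in rows by role (chaperones at the top, translocation at the bottom), colours for the 4 groups, circles for replicate 1 and triangles for replicate 2. Most members lie within 0.6 of the WT rTreg mean in every library, while Atf6 rises and Trib3 falls in aTreg cells and Dnajb9 and Ppp1r15a split by replicate number.

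In rTreg cells, loss of Foxp1 came with modestly higher levels of many ER folding genes. Of the 35 members, 12 rose in Foxp1-deficient against WT rTreg cells (34.3%, against 6.57% of all genes tested) and 1 fell (2.86%, against 5.45%), at an adjusted p-value under 0.05 by the edgeR quasi-likelihood test, adjusted after Benjamini-Hochberg over all 14540 genes. The genes that rose were the chaperones Hspa5, Hsp90b1 and Calr, the disulfide isomerases Pdia4 and P4hb, the co-chaperones Dnajb11 and Sdf2l1, the sensors Ern1 and Eif2ak3, the transcription factor Xbp1 and the translocon-associated subunits Ssr2 and Ssr4. The co-chaperone Dnajb9 fell. The changes were small. Ern1 and Dnajb9 alone passed 1.5-fold, 2 of 35 members against 5.6% of all genes in either direction. The median log2 change over the members was 0.15, against 0.00291 over all genes. All 13 called members moved in the same direction in both replicate pairs. The blocked test largely selects for such agreement, so it is not separate support for the rise.

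Levels of 23 of the 35 members did not overlap between the genotypes in rTreg cells, against 45.2% of all genes. Of the 23, 18 were higher in Foxp1-deficient cells. The counts with libraries left out that follow come without shares of all genes. They do not show whether members lost calls more than other genes. The count of calls in rTreg cells rested on the block and fell to 0 or 1 without any 1 library of the comparison. Without the block 0 members and 2.06% of all genes were called (edgeR adjusted p from 0.102 for Ssr2 to 0.684 for Dnajb9 among the 13). Without WT replicate 1 or Foxp1-deficient replicate 1 the member still called was Dnajb9, which fell, without Foxp1-deficient replicate 2 it was Ern1, and without WT replicate 2 there were 0. Without both Foxp1-deficient replicate 1 libraries 10 members were called, 8 higher and 2 lower.

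In aTreg cells the members leaned the same way, but few passed the test. Hsp90b1 and Dnajb11 rose in Foxp1-deficient against WT aTreg cells (5.71% of members, against 4.11% of all genes) and Ppp1r15a fell (2.86%, against 2.77%), shares near those of all genes. No member passed 1.5-fold, which 4.03% of all genes did in either direction. The median log2 change of the members was 0.14, against 0.00185 over all genes, and 27 of the 35 fitted changes were above 0. Counts with libraries left out are again given without shares of all genes, and do not set the members apart from other genes. The count of called members was 0 without the block (0.557% of all genes), 0 without WT replicate 2, 0 without Foxp1-deficient replicate 2, 1 without Foxp1-deficient replicate 1 and 6 (4 higher) without both Foxp1-deficient replicate 1 libraries.

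The genotype effect was compared between rTreg and aTreg cells directly, as an interaction term in the same edgeR fit. None of the 35 members passed (0 at an adjusted p under 0.05, 5 at an unadjusted p under 0.05), against 0.33% of all genes adjusted and 1862 of the 14540 unadjusted, so that the 5 are near the share of all genes, and 0 were called under each of the 16 alternatives, DESeq2 and limma-voom among them. The lowest adjusted p was 0.210 (edgeR), for Hspa5, whose genotype difference was 0.18 ± 0.05 in rTreg and -0.04 ± 0.05 in aTreg cells on the log2 scale. The other 4 with an unadjusted p under 0.05 were Xbp1, Dnajb9, Ppp1r15a and Atf6. A gene called in rTreg and not in aTreg cells is thus not shown to respond differently in them.

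**Figure D2:**
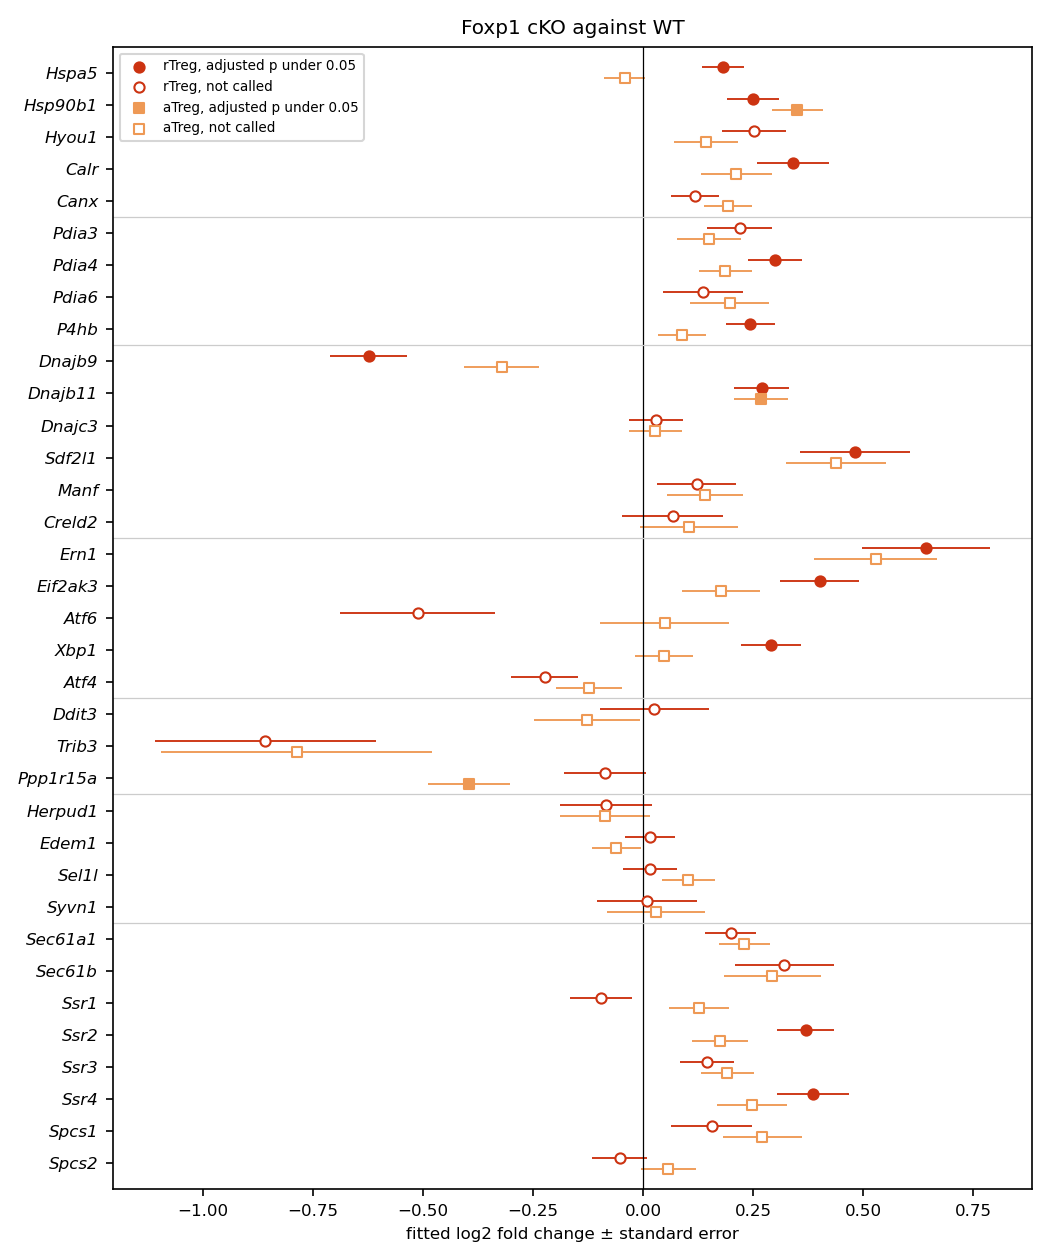
Fitted log2 fold change of each of the 35 members between Foxp1-deficient and WT cells, with its standard error, in rTreg cells (circles) and aTreg cells (squares), filled where the adjusted p is under 0.05. In rTreg cells 27 of the 35 points lie above 0 and 13 are filled, and in aTreg cells 27 lie above 0 and 3 are filled.

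Markers of other cells moved with genotype in rTreg cells too. The defining plasma cell markers, which mark a cell type rich in ER, were found for 3 of 4 genes (Jchain, Mzb1 and Sdc1) and summed to 0.471 to 2.39 CPM in WT rTreg, 5.34 to 8.77 in Foxp1-deficient rTreg, 2.88 to 3.29 in WT aTreg and 3.67 to 12.8 in Foxp1-deficient aTreg cells. Of these, Jchain was called higher in rTreg cells and none in aTreg cells, and Sdc1 was at 0 in Foxp1-deficient rTreg replicate 2. Of the immunoglobulin genes, Ighg1 stood at 0 and 0.314 CPM in WT rTreg, 13.1 and 14.7 in Foxp1-deficient rTreg, 1.54 and 2.12 in WT aTreg and 11.1 and 5.18 in Foxp1-deficient aTreg cells. Igkc stood at 5.99 and 0.157 CPM in WT rTreg, 22.8 and 15.6 in Foxp1-deficient rTreg, 5.71 and 5.45 in WT aTreg and 40.1 and 24.2 in Foxp1-deficient aTreg cells. Ighg2c was at 0 to 1.20 CPM in the 4 WT libraries and at 8.38 CPM or more in the 4 Foxp1-deficient libraries. All 3 genes were called higher with loss of Foxp1 in both subsets, and no fold is given against groups with values at or near 0. In all, 4 of the 13 plasma cell genes found rose with loss of Foxp1 in rTreg cells, against 6.57% of all genes. In aTreg cells 4 rose, against 4.11% of all genes, and 0 fell in either subset. Besides the 3 immunoglobulin genes these were Jchain in rTreg and Prdm1 in aTreg cells. Without a call, Sdc1 and Fkbp11 had fitted changes below 0 in rTreg cells. In aTreg cells Irf4 (-0.38 ± 0.12), Derl3 (-0.84 ± 0.33) and Fkbp11 (-0.65 ± 0.67) did so. The sum of the 13, most of it Ighm (164 to 772 CPM), was 228 to 276 CPM in WT rTreg, 352 to 380.0 in Foxp1-deficient rTreg, 806 to 809 in WT aTreg and 949.7 to 1011 in Foxp1-deficient aTreg cells. The 3 defining B cell markers summed to 0.0921 to 0.289 CPM in rTreg and 0.962 to 1.21 CPM in aTreg libraries. Pax5, the only 1 of them tested, was called higher in aTreg than in rTreg cells in both genotypes. A wider list of 7 B cell genes summed to 8.47 to 10.997 CPM in rTreg libraries. In aTreg libraries its sum was 33.7 to 39.5 CPM. Of its 5 genes tested, 3 were called higher in aTreg than rTreg cells in WT (against 18.2% of all genes). In Foxp1-deficient cells 4 were (against 21.9%). Between genotypes only Cd22 was called, higher in Foxp1-deficient rTreg cells. A list of 12 myeloid genes summed to 9.03 to 9.11 CPM in WT rTreg, 14.2 to 23.4 in Foxp1-deficient rTreg and 10.4 to 10.8 in WT aTreg cells. In Foxp1-deficient aTreg cells the sum was 36.8 CPM in replicate 1 and 8.27 in replicate 2. Of its 8 genes tested, 3 (S100a8, S100a9 and Mpo) were called higher with loss of Foxp1 in rTreg cells, against 6.57% of all genes. In aTreg cells 1 (Mpo) was, against 4.11%, and 0 were lower in either subset. Lists of CD8 or NK cell genes (24.5 to 43.6 CPM) and erythroid genes (0.867 to 4.30 CPM) stayed low. The 8 proliferation genes rose in all 4 comparisons and summed to 18.5 to 24.8 CPM in WT rTreg, 123 to 169.9 in Foxp1-deficient rTreg, 101 to 186 in WT aTreg and 331 to 457 in Foxp1-deficient aTreg cells. The part of these cells and of cycling cells in the member changes was not tested. In bulk samples, more cells of a type and more RNA per cell cannot be told apart.

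Between aTreg and rTreg cells a few members changed strongly and the rest little. In WT cells 8 members rose in aTreg (22.9%, against 18.2% of all genes) and 2 fell (5.71%, against 13.6%). In Foxp1-deficient cells 9 rose (25.7%, against 21.9%) and 5 fell (14.3%, against 18.2%), and the shares that rose were near those of all genes in both genotypes. Hspa5, Pdia3, Pdia6, Sdf2l1, Atf6 and Sel1l rose and Trib3 and Ppp1r15a fell in both genotypes. Calr and Pdia4 rose in WT cells, while Hsp90b1, Ssr1 and Spcs2 rose and Eif2ak3, Xbp1 and Edem1 fell in Foxp1-deficient cells. Only Atf6 and Trib3 passed 2-fold, in both genotypes, as did 12.3% of all genes in WT and 15.7% in Foxp1-deficient cells.

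The median log2 change of the members between aTreg and rTreg was 0.10 in WT cells, against -0.00456 over all genes. In Foxp1-deficient cells it was 0.06, against -0.0180. Counts under the alternatives that follow come without shares of all genes, and do not set the members apart from other genes. In WT cells 4 members were called without the block, 5 without either WT rTreg library and 4 without WT aTreg replicate 1. In Foxp1-deficient cells 6 were called without the block, 6 without rTreg replicate 1, 8 without aTreg replicate 2 and 8 without both replicate 1 libraries. The calls of Atf6 and Sdf2l1 in both genotypes, of Trib3 in WT cells and of Ssr1 in Foxp1-deficient cells held in all 17 alternatives.

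**Figure D3:**
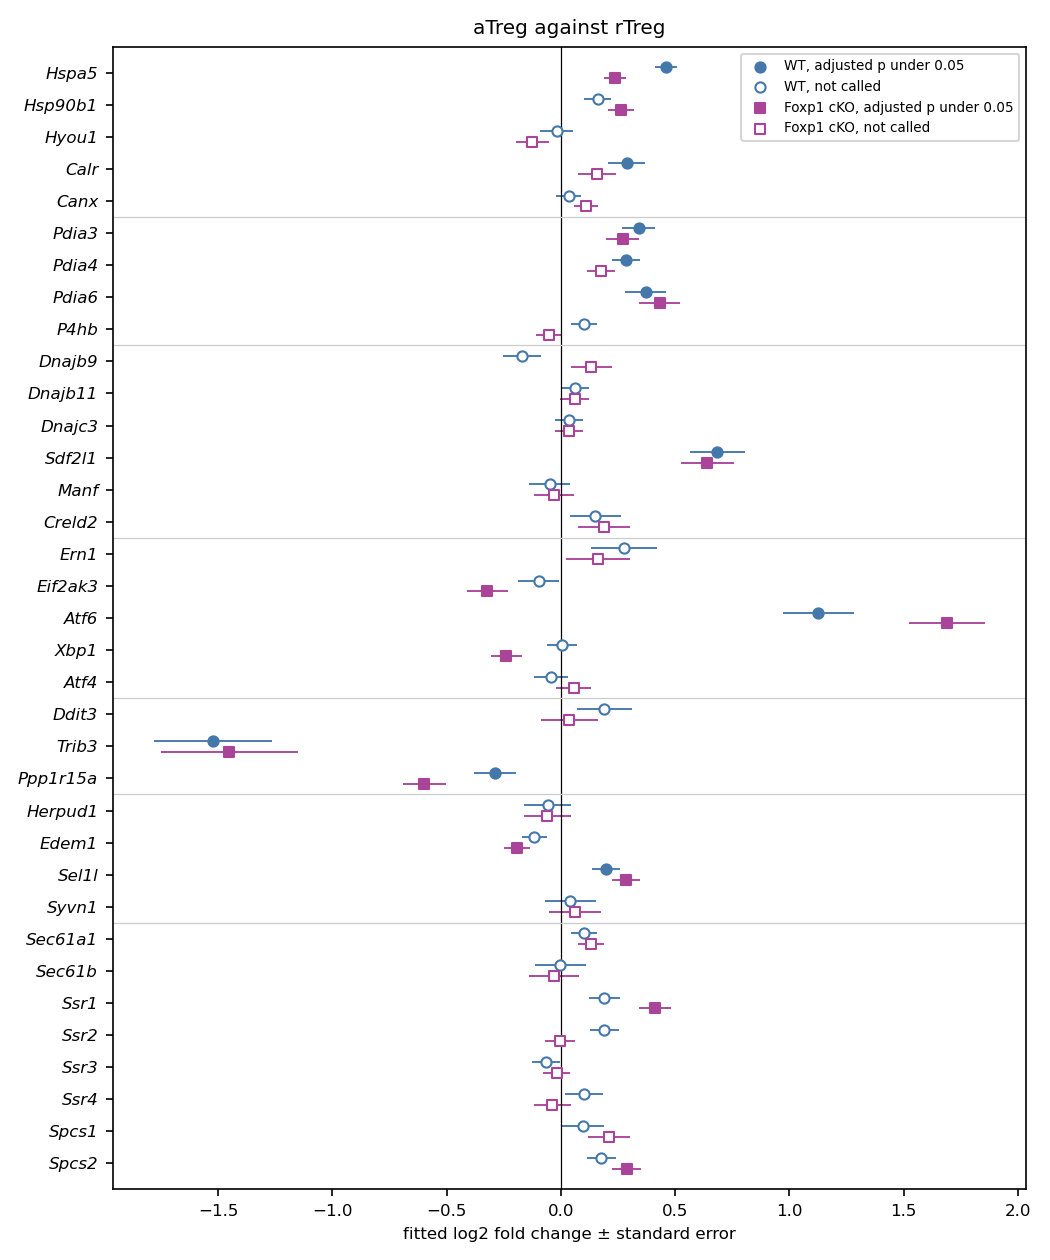
Fitted log2 fold change of each of the 35 members between aTreg and rTreg cells, with its standard error, in WT cells (circles) and Foxp1-deficient cells (squares), filled where the adjusted p is under 0.05. Atf6 stands at 1.13 and 1.69 and Trib3 at -1.52 and -1.45, apart from the other members.

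Among the chaperones of the ER lumen, Hspa5 encodes BiP, the Hsp70 chaperone that binds unfolded chains and holds the sensors inactive, and it carries the first ERSE shown above (chr2:34771970-34777547, plus strand, GRCm38). That interval is the GENCODE gene, which starts upstream of the RefSeq start from which the sites were placed, so the ERSE lies before the RefSeq start and inside the GENCODE interval. Its level was 508 and 419 CPM in WT rTreg, 564 and 485 in Foxp1-deficient rTreg, 695 and 579.5 in WT aTreg and 668 and 569 in Foxp1-deficient aTreg cells. Replicate 1 was higher than replicate 2 in each group, and the aTreg values lay above the rTreg values of the same genotype. Hspa5 rose in aTreg cells by 0.46 ± 0.05 (SE) on the log2 scale in WT (1.38-fold, edgeR adjusted p = 0.000320) and by 0.24 ± 0.05 in Foxp1-deficient cells (edgeR adjusted p = 0.00565). Its rise with loss of Foxp1 in rTreg cells, 0.18 ± 0.05, was near the threshold (edgeR adjusted p = 0.0487) and was kept in 4 of the 17 alternatives.

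Hsp90b1 encodes GRP94, the Hsp90 of the ER lumen, which folds integrins and Toll-like receptors, and it carries the pair of ERSE sites (chr10:86690209-86705509, minus strand). It was measured at 129 and 175 CPM in WT rTreg, 151 and 211 in Foxp1-deficient rTreg, 148 and 191 in WT aTreg and 186 and 247 in Foxp1-deficient aTreg cells. Here replicate 2 was the higher in each group, so the genotypes overlapped, while each Foxp1-deficient library exceeded the WT library of its own number. The log2 rise with loss of Foxp1 was 0.25 ± 0.06 in rTreg (edgeR adjusted p = 0.0328) and 0.35 ± 0.06 in aTreg cells (edgeR adjusted p = 0.0149). This gene and Dnajb11 were the members called higher in both subsets. Exons of the transcribed pseudogene 1810014B01Rik cover 10.3% of its exon bases, and the sources used here do not state whether counting used strand.

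Calr and Canx encode calreticulin and calnexin, lectin chaperones that hold glycoproteins during folding, and Hyou1 encodes an Hsp110 that exchanges the nucleotide of BiP. Calr (chr8:84841850-84846934) stood at 361 and 350.3 CPM in WT rTreg, 436 and 464 in Foxp1-deficient rTreg, 471 and 398 in WT aTreg and 493 and 512 in Foxp1-deficient aTreg cells. Both Foxp1-deficient rTreg values were above both WT rTreg values, and Calr rose by 0.34 ± 0.08 on the log2 scale (edgeR adjusted p = 0.0360). It also rose in WT aTreg against WT rTreg cells (0.29 ± 0.08, edgeR adjusted p = 0.0306). Canx, from 228 to 298 CPM over the 8 libraries, and Hyou1, from 141 to 181 CPM, passed the test in none of the 4 comparisons. Hyou1 had a log2 difference of 0.25 ± 0.07 between genotypes in rTreg cells (edgeR adjusted p = 0.0632).

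The 4 disulfide isomerases form and rearrange disulfide bonds. All 4 were higher in both Foxp1-deficient than in both WT libraries, in rTreg and in aTreg cells. Of all genes 45.2% and 41.8% were separated in one direction or the other. In rTreg cells 2 of the 4 were called higher (50%, against 6.57% of all genes). Pdia4 (ERp72) was measured at 90.0 and 96.2 CPM in WT rTreg, 113 and 116 in Foxp1-deficient rTreg, 113 and 114 in WT aTreg and 124 and 135 in Foxp1-deficient aTreg cells. Its values in WT rTreg cells lay below the values of the 3 other groups, and it rose with loss of Foxp1 in rTreg cells (0.30 ± 0.06, edgeR adjusted p = 0.0215) and in WT aTreg against WT rTreg cells (0.29 ± 0.06, edgeR adjusted p = 0.00949). P4hb, the founding disulfide isomerase PDI, rose with loss of Foxp1 in rTreg cells by 0.24 ± 0.06 on the log2 scale (edgeR adjusted p = 0.0314), and its change between subsets did not pass the test in either genotype. Pdia3 (ERp57), the partner of calnexin and calreticulin, and Pdia6 (P5) passed the test between subsets and not between genotypes. Pdia6 stood at 91.2 and 91.1 CPM in WT rTreg, 94.4 and 105 in Foxp1-deficient rTreg, 127 and 109 in WT aTreg and 134 and 136 in Foxp1-deficient aTreg cells. It rose in aTreg cells by 0.37 ± 0.09 in WT (edgeR adjusted p = 0.0166) and 0.43 ± 0.09 in Foxp1-deficient cells (edgeR adjusted p = 0.00665), with a genotype difference of 0.14 ± 0.09 in rTreg cells that did not pass. Pdia3 likewise rose in aTreg cells of both genotypes, by 0.34 ± 0.07 and 0.27 ± 0.07.

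Sdf2l1 encodes a small luminal protein that works with BiP and its J-domain partners, and it is a target of the unfolded protein response (chr16:17130138-17132383). Its level was 12.5 and 12.4 CPM in WT rTreg, 15.8 and 18.7 in Foxp1-deficient rTreg, 20.5 and 19.7 in WT aTreg and 27.3 and 27.0 in Foxp1-deficient aTreg cells. None of its 4 groups overlapped, and their means rose in that order. Sdf2l1 rose in aTreg cells 1.61-fold in WT (0.69 ± 0.12, edgeR adjusted p = 0.00408) and 1.56-fold in Foxp1-deficient cells (0.64 ± 0.12, edgeR adjusted p = 0.00368). With loss of Foxp1 it rose 1.40-fold in rTreg cells (edgeR adjusted p = 0.0463), a call kept in 3 of the 17 alternatives, and in aTreg cells the difference was 0.44 ± 0.11 (edgeR adjusted p = 0.0629).

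Dnajb11 encodes ERdj3, a soluble J-domain partner of BiP, and carries the ERSE-II site shown above. It was measured at 92.3 and 90.5 CPM in WT rTreg, 108 and 112 in Foxp1-deficient rTreg, 97.1 and 93.8 in WT aTreg and 112 and 118 in Foxp1-deficient aTreg cells. All 4 Foxp1-deficient values lay above all 4 WT values. Dnajb11 rose by 0.27 ± 0.06 in rTreg (edgeR adjusted p = 0.0328) and by 0.27 ± 0.06 in aTreg cells (edgeR adjusted p = 0.0441) with loss of Foxp1, and its differences between aTreg and rTreg cells were 0.06 in both genotypes. The call in aTreg cells was kept in 6 of the 17 alternatives. Dnajc3 (p58IPK, a further J-domain protein), Manf and Creld2, which are secreted targets of the response, passed the test in none of the 4 comparisons, and their largest fitted change was 0.19 ± 0.11, for Creld2 in Foxp1-deficient aTreg against rTreg cells.

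Dnajb9 encodes ERdj4, the J-domain protein that recruits BiP to IRE1α and so restrains it (chr12:44205559-44210326). Its level was 92.8 and 43.7 CPM in WT rTreg, 63.9 and 26.6 in Foxp1-deficient rTreg, 78.8 and 40.7 in WT aTreg and 68.3 and 30.0 in Foxp1-deficient aTreg cells. Replicate 1 exceeded replicate 2 by 0.95 to 1.26 on the log2 scale in every group, so the genotypes overlapped. Within the replicate pairs it was lower in Foxp1-deficient rTreg cells by 0.62 ± 0.09 (1.54-fold lower, edgeR adjusted p = 0.00541), against the direction of the other called members. In aTreg cells the difference was -0.32 ± 0.08 (edgeR adjusted p = 0.0658).

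Ppp1r15a encodes GADD34, which is induced by stress and returns phosphorylated eIF2α to its active form (chr7:45522916-45526268). It was split by replicate in the same way, at 519 and 262 CPM in WT rTreg, 521 and 232 in Foxp1-deficient rTreg, 445 and 205 in WT aTreg and 373 and 140.1 in Foxp1-deficient aTreg cells. Replicate 1 exceeded replicate 2 by 0.99 to 1.41 on the log2 scale. In the blocked fit Ppp1r15a fell in aTreg cells, by 0.29 ± 0.09 in WT (edgeR adjusted p = 0.0488) and 0.60 ± 0.09 in Foxp1-deficient cells (edgeR adjusted p = 0.00174), and with loss of Foxp1 in aTreg cells by 0.40 ± 0.09 (edgeR adjusted p = 0.0477). Without the block none of these calls, nor that of Dnajb9, remained, with adjusted p from 0.581 to 0.912.

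Of the 12 handling-stress genes, several immediate-early genes were also higher in replicate 1 in every group, among them Fos, Fosb, Jun, Junb, Ier2 and Dusp1, while Egr1 was not (143 and 141 CPM in WT rTreg, 118 and 105 in Foxp1-deficient rTreg, 168 and 182 in WT aTreg and 157 and 166 in Foxp1-deficient aTreg cells). Jun, a subunit of AP-1, stood at 628 and 284 CPM in WT rTreg, 511 and 234 in Foxp1-deficient rTreg, 493 and 253 in WT aTreg and 284 and 124 in Foxp1-deficient aTreg cells. Dusp1, a phosphatase of MAP kinases, stood at 814 and 234 CPM in WT rTreg, 633 and 124 in Foxp1-deficient rTreg, 1626 and 465 in WT aTreg and 1081 and 291 in Foxp1-deficient aTreg cells. In contrast, the heat shock genes Hsp90aa1, Hspa1b and Dnajb1 of this list were higher in replicate 2 in every group. Hspa1a was higher in replicate 2 in every group except WT aTreg. Some of the 12 genes also differed between genotypes in the blocked fit. Their direction was that of the called falls of Dnajb9 in rTreg and of Ppp1r15a in aTreg cells. Dnajb9 was not called in aTreg cells, nor Ppp1r15a in rTreg cells (-0.09 ± 0.09, edgeR adjusted p = 0.593). Jun fell with loss of Foxp1 by 0.29 ± 0.07 in rTreg (edgeR adjusted p = 0.0316) and 0.91 ± 0.07 in aTreg cells (edgeR adjusted p = 0.000873), and Dusp1 by 0.62 ± 0.12 (edgeR adjusted p = 0.0201) and 0.63 ± 0.12 (edgeR adjusted p = 0.0263). Fosb was called lower in both subsets and Egr1 in rTreg cells. In all, 4 of the 12 genes fell in rTreg cells, against 5.45% of all genes. In aTreg cells 3 fell, against 2.77% of all genes, and 0 rose in either subset. The labels do not say what the replicate number marks, or whether the study's sequencing rounds follow it. The sex of the mice, handling and any such round cannot be told apart as sources of the difference between replicates. The part of this difference, and of the handling-stress genes, in the levels of Dnajb9 and Ppp1r15a was not tested.

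**Figure D4:**
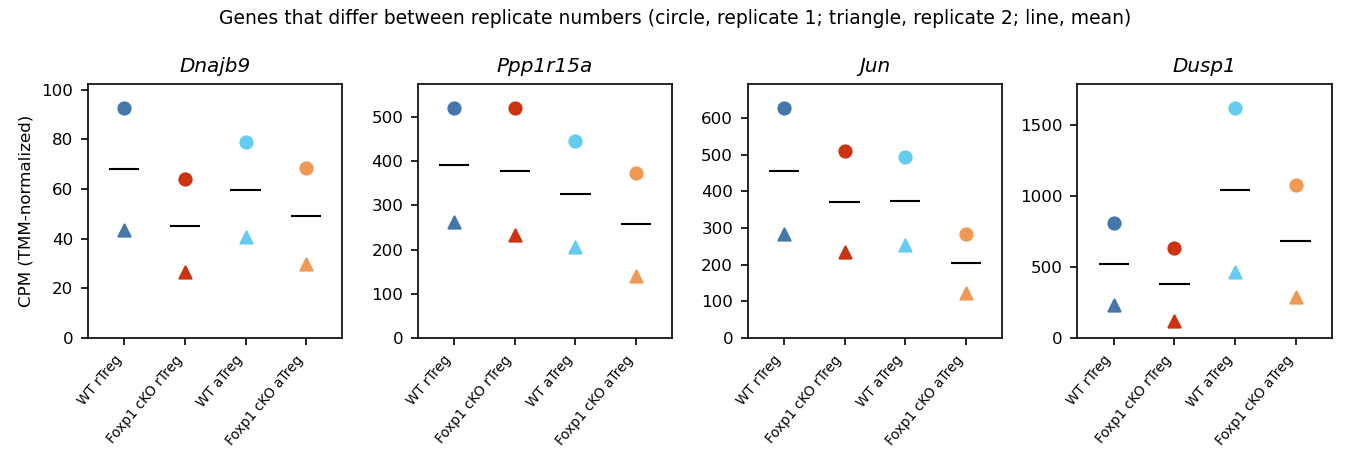
TMM-normalized CPM of the members Dnajb9 and Ppp1r15a and of the immediate-early genes Jun and Dusp1 in each library, with circles for replicate 1, triangles for replicate 2 and a line at the mean of each group. In all 4 panels and all 4 groups the circle lies above the triangle.

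The sensors moved in different directions. Ern1 encodes IRE1α, the kinase and endonuclease that splices Xbp1 mRNA (chr11:106394650-106487852). Its level was 18.1 and 24.5 CPM in WT rTreg, 35.7 and 31.3 in Foxp1-deficient rTreg, 23.5 and 28.0 in WT aTreg and 35.1 and 39.2 in Foxp1-deficient aTreg cells. All 4 Foxp1-deficient values exceeded all 4 WT values. Ern1 rose 1.56-fold with loss of Foxp1 in rTreg cells (0.64 ± 0.15, edgeR adjusted p = 0.0302), the largest rise among the called members there, with pair differences of 0.98 and 0.35. In aTreg cells the difference was 0.53 ± 0.14 (edgeR adjusted p = 0.0652).

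Eif2ak3 encodes PERK, the kinase that phosphorylates eIF2α. It was measured at 46.7 and 40.4 CPM in WT rTreg, 56.3 and 58.2 in Foxp1-deficient rTreg, 39.2 and 41.8 in WT aTreg and 47.2 and 44.7 in Foxp1-deficient aTreg cells. Eif2ak3 rose with loss of Foxp1 in rTreg cells (0.40 ± 0.09, edgeR adjusted p = 0.0285) and was lower in Foxp1-deficient aTreg than rTreg cells by 0.32 ± 0.09 (edgeR adjusted p = 0.0222), so the Foxp1-deficient rTreg libraries were the highest of the 8. Xbp1, the transcription factor whose spliced form induces chaperone and degradation genes, was likewise highest in the Foxp1-deficient rTreg libraries, at 89.4 and 79.4 CPM in WT rTreg, 111 and 95.8 in Foxp1-deficient rTreg, 94.5 and 75.8 in WT aTreg and 91.6 and 83.4 in Foxp1-deficient aTreg cells. It rose by 0.29 ± 0.07 in Foxp1-deficient rTreg cells (edgeR adjusted p = 0.0323) and was lower in Foxp1-deficient aTreg than rTreg cells by 0.24 ± 0.07 (edgeR adjusted p = 0.0240), calls kept in 10 and 7 of the 17 alternatives. Unspliced and spliced Xbp1 are counted together.

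Atf6 encodes the membrane-bound transcription factor that is cleaved in the Golgi under stress (chr1:170704674-170867771, minus strand). It stood at 17.2 and 17.7 CPM in WT rTreg, 16.1 and 9.60 in Foxp1-deficient rTreg, 41.5 and 35.4 in WT aTreg and 45.5 and 34.6 in Foxp1-deficient aTreg cells. Every aTreg value was well above every rTreg value. Atf6 rose 2.18-fold in WT aTreg against rTreg cells (1.13 ± 0.16, edgeR adjusted p = 0.00130) and 3.22-fold in Foxp1-deficient cells (1.69 ± 0.17, edgeR adjusted p = 0.000175), the largest rise of any member in either genotype. In rTreg cells it was lower in the Foxp1-deficient libraries without passing the test (-0.51 ± 0.18, edgeR adjusted p = 0.102), with pair differences of -0.10 and -0.87. Atf4, the factor translated when eIF2α is phosphorylated, was measured at 187 and 175 CPM in WT rTreg, 164 and 146 in Foxp1-deficient rTreg, 192 and 160.1 in WT aTreg and 182 and 142 in Foxp1-deficient aTreg cells, and it passed the test in none of the 4 comparisons.

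Trib3 encodes a pseudokinase that is induced by ATF4 and CHOP (chr2:152337422-152344032). It was the member with the lowest counts, at 6.17 and 6.91 CPM in WT rTreg, 4.46 and 3.03 in Foxp1-deficient rTreg, 2.30 and 2.24 in WT aTreg and 1.34 and 1.29 in Foxp1-deficient aTreg cells. Values fell in aTreg cells without overlap, 2.87-fold in WT (-1.52 ± 0.26, edgeR adjusted p = 0.00333) and 2.73-fold in Foxp1-deficient cells (-1.45 ± 0.30, edgeR adjusted p = 0.00646). Foxp1-deficient values were below WT values in both subsets, with log2 differences of -0.86 ± 0.25 in rTreg (edgeR adjusted p = 0.0664) and -0.79 ± 0.31 in aTreg cells (edgeR adjusted p = 0.176) that did not pass the test. Ddit3, which encodes the proapoptotic factor CHOP, stayed between 17.5 and 22.7 CPM in the 8 libraries and was called in no comparison.

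**Figure D5:**
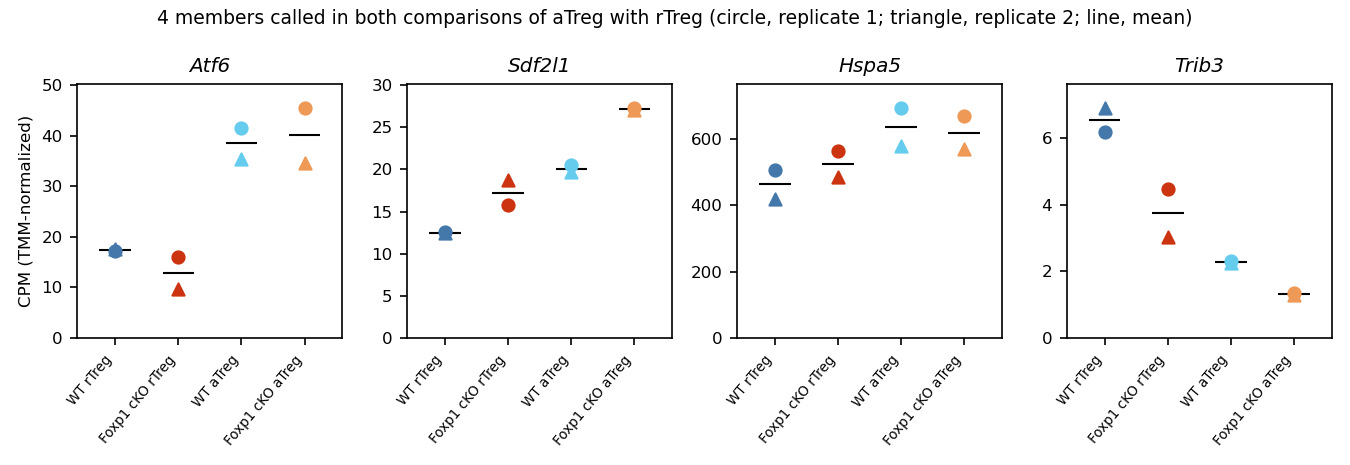
TMM-normalized CPM of Atf6, Sdf2l1, Hspa5 and Trib3, members called in both comparisons of aTreg with rTreg cells, in each library, with circles for replicate 1, triangles for replicate 2 and a line at the mean of each group. Atf6 lies at 9.60 to 17.7 CPM in rTreg and 34.6 to 45.5 CPM in aTreg cells, and Trib3 at 3.03 to 6.91 and 1.29 to 2.30 CPM.

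The 4 genes of ER-associated degradation did not pass the test between genotypes. Herpud1, Edem1, Sel1l and Syvn1 (HRD1) encode a scaffold, a mannosidase-like lectin and the 2 core subunits of a ubiquitin ligase of the ER membrane. Their log2 differences between genotypes lay from -0.08 to 0.02 in rTreg and from -0.09 to 0.10 in aTreg cells. Sel1l stood at 97.1 and 109 CPM in WT rTreg, 96.9 and 112 in Foxp1-deficient rTreg, 115 and 122 in WT aTreg and 121 and 133 in Foxp1-deficient aTreg cells. It rose in aTreg cells by 0.20 ± 0.06 in WT (edgeR adjusted p = 0.0397) and 0.29 ± 0.06 in Foxp1-deficient cells (edgeR adjusted p = 0.00736), calls kept in 6 and 15 of the 17 alternatives. Edem1, at 326 to 410 CPM, fell by 0.19 ± 0.06 in Foxp1-deficient aTreg against rTreg cells (edgeR adjusted p = 0.0276).

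The 8 genes of translocation and signal peptide cleavage encode subunits of the Sec61 channel (Sec61a1, Sec61b), of the translocon-associated protein complex (Ssr1 to Ssr4) and of signal peptidase (Spcs1, Spcs2). In rTreg cells 2 of the 8 rose with loss of Foxp1 (25%, against 6.57% of all genes). Ssr2 was measured at 52.0 and 51.2 CPM in WT rTreg, 70.0 and 63.8 in Foxp1-deficient rTreg, 60.5 and 57.4 in WT aTreg and 69.7 and 63.6 in Foxp1-deficient aTreg cells. Its Foxp1-deficient values were above its WT values in both subsets, with a log2 rise of 0.37 ± 0.06 in rTreg cells (edgeR adjusted p = 0.0128). Ssr4 stood at 54.6 and 52.6 CPM in WT rTreg, 69.2 and 70.3 in Foxp1-deficient rTreg, 63.2 and 52.4 in WT aTreg and 71.5 and 65.1 in Foxp1-deficient aTreg cells. It rose by 0.39 ± 0.08 in rTreg cells (edgeR adjusted p = 0.0236). In aTreg cells all 8 fitted genotype differences were above 0, from 0.06 to 0.29, and none passed the test (lowest edgeR adjusted p = 0.0565, Sec61a1).

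Ssr1, the alpha subunit of the same complex, had another pattern of values. Its level was 113 and 123 CPM in WT rTreg, 108 and 112 in Foxp1-deficient rTreg, 131 and 138 in WT aTreg and 151 and 142 in Foxp1-deficient aTreg cells. Foxp1-deficient rTreg values were the lowest of the 8 without a call between genotypes (-0.10 ± 0.07, edgeR adjusted p = 0.421), and Ssr1 rose in Foxp1-deficient aTreg against rTreg cells by 0.41 ± 0.07 (edgeR adjusted p = 0.00246). Spcs2 also rose there, by 0.29 ± 0.06 (edgeR adjusted p = 0.00807). Exons of other genes in the table cover 12.8% of the exon bases of Ssr2 (the pseudogene Gm10704) and 16.3% of those of Spcs1 (Glt8d1), so part of their reads could come from those genes.

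Of the 8 members with an ERSE in the window, Hspa5, Hsp90b1 and Calr rose with loss of Foxp1 in rTreg cells. Canx, Pdia6, Dnajc3, Creld2 and Syvn1 were not called. Over all 35 members 34.3% rose in this comparison, against 6.57% of all genes. A link between the element and these changes was not tested. Between aTreg and rTreg cells, Hspa5 and Pdia6 were called in both genotypes, and Canx, Dnajc3, Creld2 and Syvn1 in neither. Calr was called in WT cells alone and Hsp90b1 in Foxp1-deficient cells alone. Among all 35 members 22.9% rose in WT and 25.7% in Foxp1-deficient cells, against 18.2% and 21.9% of all genes.

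Of 136 further genes of the secretory pathway and of stress signaling, 133 were found once and 129 were tested. In rTreg cells 13 of the 129 rose with loss of Foxp1 (10.1%, against 6.57% of all genes) and 2 fell (1.55%, against 5.45%), and in aTreg cells 5 rose (3.88%, against 4.11%) and 0 fell (against 2.77%). The largest rises in rTreg cells were those of Sesn2, an ATF4 target that restrains mTORC1 (log2 0.95 ± 0.17, edgeR adjusted p = 0.0152), the transcription factor gene Cebpb (0.69 ± 0.14, edgeR adjusted p = 0.0190) and Edem2, which starts mannose trimming of misfolded glycoproteins (0.50 ± 0.07, edgeR adjusted p = 0.00416). The genes that fell were Ddit4, an inhibitor of mTORC1 (-0.43 ± 0.08, edgeR adjusted p = 0.0172), and Crebrf (-0.41 ± 0.07, edgeR adjusted p = 0.0140). In aTreg cells the largest rises were those of the apoptosis effector gene Bak1 (0.54 ± 0.08, edgeR adjusted p = 0.0119), Eif2ak2, which encodes the RNA-activated kinase PKR (0.49 ± 0.11, edgeR adjusted p = 0.0385), and Ero1l, the oxidase that recharges disulfide isomerases (0.47 ± 0.08, edgeR adjusted p = 0.0158).

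In aTreg against rTreg cells, 28 of these 129 genes rose in WT (21.7%, against 18.2% of all genes) and 14 fell (10.9%, against 13.6%), and 42 rose in Foxp1-deficient cells (32.6%, against 21.9%) and 16 fell (12.4%, against 18.2%). Of the 20 further foldase and quality control genes, 5 rose in WT (25%) and 7 in Foxp1-deficient cells (35%). Of the 22 further degradation genes 2 (9.09%) and 7 (31.8%) rose, of 17 further translocation genes 4 (23.5%) and 5 (29.4%), of 18 N-glycosylation genes 3 (16.7%) and 4 (22.2%), of 26 stress signaling genes 9 (34.6%) and 11 (42.3%) and of 26 ER-to-Golgi transport genes 5 (19.2%) and 8 (30.8%), several of them near the shares of all genes. Derl3, a degradation factor of the ER membrane, rose in WT cells (2.38 ± 0.40, edgeR adjusted p = 0.00316), from 0.829 and 0.550 to 5.71 and 2.05 CPM. In Foxp1-deficient cells its values were 1.12 and 0.867 CPM in rTreg and 2.35 and 1.65 CPM in aTreg cells. Creb3l2, a transcription factor of secretory cells that is cleaved as ATF6 is, rose in Foxp1-deficient cells (1.35 ± 0.15, edgeR adjusted p = 0.000277), at 19.3 and 21.4 CPM in WT rTreg, 14.8 and 16.5 in Foxp1-deficient rTreg, 51.7 and 39.6 in WT aTreg and 42.8 and 38.6 in Foxp1-deficient aTreg cells. Its aTreg values lay above its rTreg values in WT cells too. Of the ATF4 targets, Atf3 and Asns had the largest fitted rises from very low levels. Asns stood at 3.04 and 0.236 CPM in WT rTreg, 0.159 and 0.144 in Foxp1-deficient rTreg, 8.12 and 2.69 in WT aTreg and 4.53 and 3.67 in Foxp1-deficient aTreg cells. Atf3 stood at 0.645 and 0 CPM in WT rTreg, 0.159 and 0 in Foxp1-deficient rTreg, 3.73 and 0.641 in WT aTreg and 3.77 and 0.144 in Foxp1-deficient aTreg cells. With so few counts in rTreg cells no fold is given for these genes, and Atf3 also followed the replicate number in aTreg cells.

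Sec24a, a cargo receptor of COPII vesicles, fell by 0.81 ± 0.09 in WT (edgeR adjusted p = 0.000403) and 0.68 ± 0.09 in Foxp1-deficient cells (edgeR adjusted p = 0.000715). Sec63, a J-domain partner of BiP at the translocon, fell by 0.48 ± 0.07 (edgeR adjusted p = 0.00229) and 0.56 ± 0.08 (edgeR adjusted p = 0.000779). Stt3b, a catalytic subunit of oligosaccharyltransferase, fell by 0.87 ± 0.09 in Foxp1-deficient cells (edgeR adjusted p = 0.000215), and Magt1, a subunit of the same enzyme, fell by 0.40 ± 0.07 in WT cells (edgeR adjusted p = 0.00369). In the other genotype both were lower in aTreg cells as well. Stt3b stood at 183 and 173 CPM in WT rTreg and 126 and 151 in WT aTreg cells. Magt1 stood at 52.6 and 60.8 CPM in Foxp1-deficient rTreg and 43.2 and 48.3 in Foxp1-deficient aTreg cells. None of the 129 genes was called for a difference of the genotype effect between the subsets (0 in edgeR, 14 at an unadjusted p under 0.05). Of all genes 0.33% were called and 1862 of the 14540 had an unadjusted p under 0.05.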

How the data were processed

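RNA was sequenced from 8 libraries of sorted mouse Treg cells, 2 in each of 4 groups. Per the labels and the methods, the authors prepared libraries with a NEBNext Ultra kit, trimmed the reads, removed duplicates, aligned to mm10 and deposited htseq-count counts per gene without normalization, and the submitters' processing notes name HISAT2 2.0.5. The deposited FPKM values equal counts over total and length (largest relative difference 7.27e-06) and were used for levels between genes. The counts entered edgeR 4.0.16 under R 4.3.3 (TMM, filterByExpr with a minimum count of 10, glmQLFit, glmQLFTest) in 1 fit of all 8 libraries, with terms for the 4 groups and a block for replicate number and with Benjamini-Hochberg adjustment over 14540 genes. Called means an adjusted p under 0.05. The block follows the study, which analysed paired samples, and same-numbered libraries deviated together from their group means (correlation 0.355 to 0.597 over the 6 pairs of groups). Alternatives were DESeq2 1.42.0, limma-voom (limma 3.58.1), median-of-ratios size factors, no filter or a filter at 1 CPM in 2 libraries, no block, the libraries of a comparison alone, removal of a length trend, and leaving out each library, and leaving out both Foxp1-deficient replicate 1 libraries was added after seeing the data. In all, 35 members, 136 further pathway genes and lists of markers were read. The members and lists were chosen with earlier results of these data known. All members were named, and of the further genes the 3 with the largest called rise and fall in each comparison. Coordinates are from GENCODE M21 (GRCm38), promoters from RefSeq. At these depths 3 counts correspond to 0.197 to 0.471 CPM, a floor that covers counting error alone. On simulated counts, the fit was tested for recovery of known changes. A result for 1 further marker is not reported here.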

Additional observations from a re-analysis of the deposited data

How the results depend on the processing

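With the replicate block removed, the number of called members fell from 13 to 0 between genotypes in rTreg cells, from 3 to 0 in aTreg cells, from 10 to 4 between subsets in WT cells and from 14 to 6 in Foxp1-deficient cells. Leaving out 1 library at a time, with a lone sample assumed to vary like the other groups, gave 0 to 12, 0 to 2, 4 to 9 and 6 to 14 called members in the same order. Without both Foxp1-deficient replicate 1 libraries 6 members were called between genotypes in aTreg cells and 8 between subsets in Foxp1-deficient cells. In aTreg cells 5 members were called between genotypes with limma-voom, 8 with no filter on low counts and 0 with the libraries of the comparison alone. Except for the genotype counts without the block, no shares of all genes are given for the alternatives, here or above. The counts alone do not show whether members lost or gained calls more than other genes. The median log2 change of the members stayed above 0 throughout. Between subsets in WT cells it was 0.091 with limma-voom, 0.108 with no filter and 0.075 with the length trend removed, and in Foxp1-deficient cells 0.072 with median-of-ratios size factors, 0.070 with DESeq2 (0.0698) and with limma-voom (0.0702), 0.099 with no filter, 0.066 without the block, 0.076 with the libraries of the comparison alone, 0.074 with the length trend removed and 0.093 without both replicate 1 libraries. With 1 library left out it was 0.080 to 0.169 between genotypes in aTreg cells, 0.039 to 0.156 between subsets in WT and 0.061 to 0.103 in Foxp1-deficient cells. The cause of these shifts was not tested. For called members taken singly, 490 values under alternatives kept direction and call, 190 kept direction and lost the call, and 0 reversed. With 2 libraries per group, changes as small as those of most members were near what these data can separate from the spread.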

Other observations

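Heat shock genes of the cytosol and mitochondria are not part of the ER system, and 18 of them, chaperones, co-chaperones and the transcription factors Hsf1 and Hsf2, were read as a list chosen after their values were seen. Hsp90aa1, the stress-inducible cytosolic Hsp90, stood at 284 and 339.9 CPM in WT rTreg, 22.2 and 340.4 in Foxp1-deficient rTreg, 319 and 343 in WT aTreg and 27.0 and 327 in Foxp1-deficient aTreg cells. Hspa1b, an inducible cytosolic Hsp70, stood at 7.55 and 14.7 CPM in WT rTreg, 2.39 and 30.3 in Foxp1-deficient rTreg, 17.3 and 23.3 in WT aTreg and 3.35 and 32.7 in Foxp1-deficient aTreg cells. Both were lowest in the Foxp1-deficient replicate 1 libraries, and the WT replicate 1 libraries did not share the low level of Hsp90aa1. The ER member of the Hsp90 family, Hsp90b1, was not low in these libraries (151 CPM in rTreg and 186 CPM in aTreg cells). Hsph1, an Hsp110 of the cytosol, stood at 60.8 and 199 CPM in WT rTreg, 65.7 and 210.4 in Foxp1-deficient rTreg, 68.9 and 189.5 in WT aTreg and 82.9 and 193 in Foxp1-deficient aTreg cells, with replicate 2 the higher in every group, and Stip1, Chordc1 and Ahsa1, partners of cytosolic Hsp90, were also higher in replicate 2 in every group. The 18 genes summed to 3717 to 4074 CPM in replicate 1 and 4782 to 6007 CPM in replicate 2 libraries.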
